A study of Brassica napus with 36 samples.

Results

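HX17 is an early-maturing semi-winter variety of rapeseed (Brassica napus), an oil crop whose genome joins an A and a C subgenome. The results concern the response of its leaves to chilling after cold acclimation, measured by RNA sequencing. The HX17_CA plants had grown for 4 weeks at 20/16° (day and night), were kept at 4° for 14 days, and then spent a further 12 h overnight at 4°. The HX17_MA plants (Mock A) spent those 14 days and the 12 h at 20/16°. The third leaf from the top was taken the next morning in both groups. The labels place 3 libraries in each group, so the comparison uses 6 of the 36 libraries of the series. The other libraries hold plants moved straight from 6 weeks at 20/16° to 12 h at 4° (HX17_CB) with their own control at 20/16° throughout (HX17_MB), freezing treatments, and a second variety, HX58. Both controls thus stayed at 20/16°, and no label names a difference in temperature between them. No mutant or transgene was used. Nothing in the labels says which plants gave which library, so the p-values measure the spread between these samples.

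Plants of the temperate zone raise their tolerance of cold when they first meet low, non-freezing temperatures. In Arabidopsis, cold quickly raises the CBF (DREB1) transcription factors, which bind the promoters of COR (cold-regulated) genes. COR proteins and dehydrins shield membranes and proteins, while sugars, proline and galactinol-derived sugars accumulate as solutes. Acclimation also alters membrane lipids, pigments, RNA-binding proteins and photosynthesis, and long cold starts vernalization.

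Each HX17 library held between 33572856 and 44114004 counts, and between 58250 and 63888 of the 106340 listed genes had a count in it. Levels are given below as CPM, a gene's count scaled to a common library size with TMM, and a change as a log2 fold change of HX17_CA over HX17_MA with its standard error. Symbols are those of the Swiss-Prot protein that the authors matched to each locus, so several loci share a symbol, and near-identical A and C copies may share reads. A gene is called, and said to have risen or fallen, at an adjusted p under 0.05. Across genes, log2(CPM + 1) correlated at 0.983 between HX17_CA_1 and HX17_CA_2 but at 0.936 and 0.947 between these and HX17_CA_3. HX17_CA_1 and HX17_MA_3, of different groups, correlated at 0.937, so HX17_CA_3 stood apart from its own group. Actin BnaC05g34300D, a usual reference gene, stood at 59.3, 54.9 and 47.1 CPM in HX17_MA and at 85.1, 90.0 and 75.9 CPM in HX17_CA and was not called (0.64 ± 0.20, adjusted p = 0.0747).

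Of 49872 genes tested, 2282 rose in HX17_CA (4.58%) and 2505 fell (5.02%), together 9.6%. The median log2 fold change was 1.61 over the genes that rose, -1.85 over those that fell and -0.03 over all tested genes. A fold of at least 2 at an adjusted p under 0.005 was reached by 303 genes that rose (0.608%) and 224 that fell (0.449%). The 3 libraries of each group did not overlap for 8012 genes that were higher in HX17_CA (16.1%) and 9142 that were lower (18.3%). Counts of calls hung on single libraries. The total of 4787 calls became 1560 without HX17_MA_1, 2552 without HX17_MA_2, 2078 without HX17_MA_3, 2930 without HX17_CA_1 and 1222 without HX17_CA_2. In every refit that left out 1 of the 6 libraries, 549 rises (1.1%) and 491 falls (0.985%) were called again. All 527 genes past the stricter limit were among them.

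The choice of control mattered as well. HX17_MB differed from HX17_MA in 1272 genes that were higher (2.49%) and 852 that were lower (1.67%) of 51136 tested. Set against HX17_MB instead, HX17_CA kept 1845 of the rises (3.7% of tested genes) and 1858 of the falls (3.73%). For 96 calls the log2 fold change against HX17_MB had the opposite sign, and 10 of these were called in that opposite direction. As a comparison of its own, HX17_CA against HX17_MB called 6333 of 50810 genes higher (12.5%) and 6694 lower (13.2%).

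**Figure D1:**
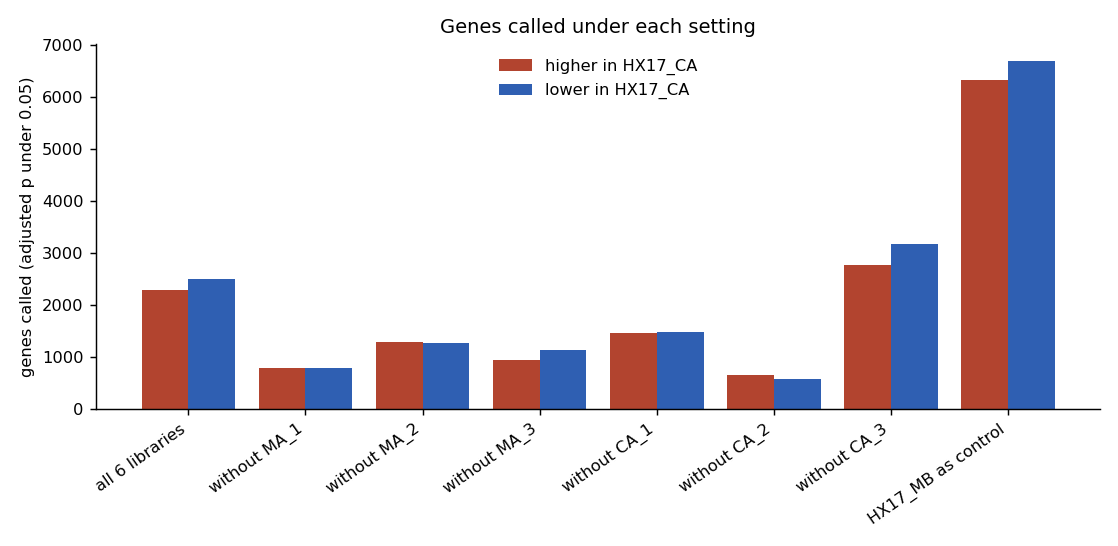
Number of genes called higher (red) or lower (blue) in HX17_CA, with all 6 libraries, with each library left out in turn, and with HX17_MB in place of HX17_MA. The total was 4787 with all 6 libraries, fell to 1222 without HX17_CA_2, and reached 13027 with HX17_MB as the control.

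The calls were spread over both subgenomes. Of 22247 tested genes on A chromosomes 5.18% rose and 4.43% fell, and of 24348 on C chromosomes 4.47% rose and 4.83% fell. The transcripts that the authors assembled outside the annotation behaved differently, as 40 of 3165 rose (1.26%) and 341 fell (10.8%). They took between 2.00 and 2.66% of the counts of a library, and this share overlapped between the groups. Rises were most frequent at a mean level of 10 to 100 CPM, with 8.82% of 11585 genes, and least frequent under 1 CPM, with 1.13% of 10464.

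The cold-regulated proteins had the highest median change of the gene lists. Of 24 tested loci 14 rose and 2 fell, with a median log2 fold change of 3.83, against 4.58 and 5.02% of all genes. Their summed level was between 343 and 421 CPM in the HX17_MA libraries and between 4655 and 5276 CPM in HX17_CA. All 14 rises were called in every refit with a library left out and against HX17_MB, whereas both falls were lost in each of the 6 refits and against HX17_MB. The 14 were 4 COR15B loci and 1 COR15A locus, 3 of KIN2, 2 of LTI65, 2 of RCI2A and 2 of COR413PM1. COR15 proteins stabilize chloroplast membranes in freezing Arabidopsis leaves, and RCI2A is a small membrane protein.

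KIN2 BnaA02g02910D (chromosome A02, 1297934 to 1298430), a small stress protein, reached the highest mean HX17_CA level among the named loci that rose. It stood at 49.9, 56.7 and 48.8 CPM in the HX17_MA libraries and at 1363, 1113 and 1111 CPM in HX17_CA. The groups were far apart, and the change was 23.1-fold (4.53 ± 0.22, adjusted p = 0.000202). Per length, its mean was 262 FPKM in HX17_MA and 6019 FPKM in HX17_CA. A KIN2 locus on chromosome A10, BnaA10g18350D, went from 0.384, 1.11 and 1.00 to 33.1, 43.8 and 71.6 CPM (5.90 ± 0.49).

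COR15B BnaC03g23750D (chromosome C03, 13250436 to 13251108) held 10.6, 17.9 and 18.8 CPM in HX17_MA and 1025, 910 and 874 CPM in HX17_CA, a 59.3-fold difference (5.89 ± 0.30, adjusted p = 0.000202). LTI65 BnaA02g10970D (chromosome A02, 5700689 to 5702820), a dehydration- and cold-induced protein, held 1.89, 5.46 and 3.03 CPM against 200, 211 and 531 CPM (6.50 ± 0.59, adjusted p = 0.00094). Here HX17_CA_3 stood above the other HX17_CA libraries, and it did so too at COR413PM1 BnaCnng37450D, a plasma membrane protein. That locus had 2.54, 11.1 and 4.52 CPM in HX17_MA and 95, 106 and 223 CPM in HX17_CA (4.55 ± 0.60). The falls were both of At4g37220, a COR413 plasma membrane protein that also belongs to the family. Its locus BnaC03g61740D had 4.24, 18.8 and 5.93 CPM against 2.92, 1.21 and 1.90 CPM (-2.27 ± 0.58, adjusted p = 0.0433).

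Dehydrins and other LEA (late embryogenesis abundant) proteins, which bind water and coat other molecules as cells dry or freeze, were more mixed. Of 18 tested loci 5 rose and 1 fell. The rises were 3 of 4 ERD10 and 2 of 5 ERD14 loci, and 4 rises were called in every refit. The falls numbered 2 without HX17_MA_3 or HX17_CA_3. ERD10 BnaA07g11450D was at 25.4, 24.3 and 31.6 CPM in HX17_MA and at 255, 241 and 208 CPM in HX17_CA (3.11 ± 0.22, adjusted p = 0.000372). The fall was LEA5 BnaC03g73200D, with 38.8, 39.9 and 25.6 CPM against 8.81, 7.78 and 9.89 CPM (-1.98 ± 0.25). A LEA5 locus with a much higher level, BnaC05g01450D, stood at 1302, 845 and 727 CPM in HX17_MA and 1068, 732 and 688 CPM in HX17_CA. Its groups overlapped and it was not called (-0.21 ± 0.28, adjusted p = 0.667).

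**Figure D2:**
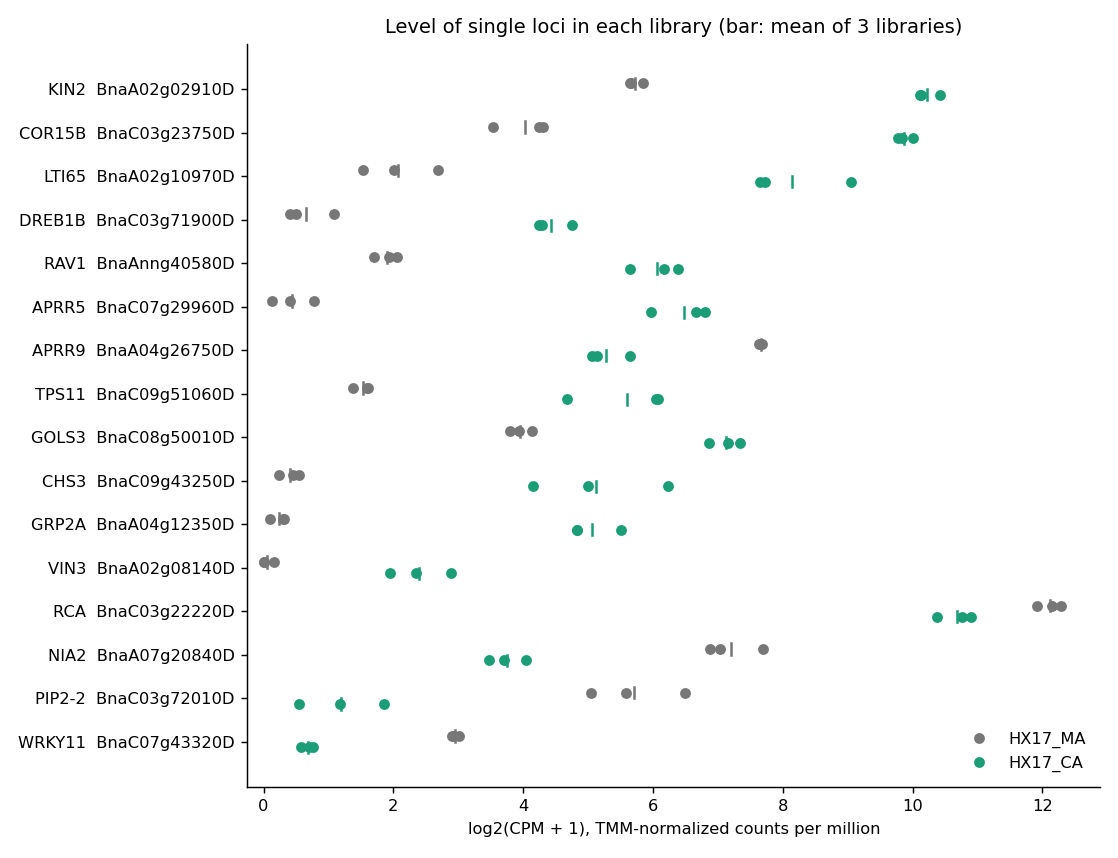
Level of 16 loci in each of the 6 libraries, as log2(CPM + 1), with HX17_MA in grey, HX17_CA in green and a bar at the mean of 3 libraries. The groups did not overlap at any of the 16 loci, with 11 higher and 5 lower in HX17_CA.

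Upstream factors of the cold response rose at their CBF and RAV1 loci. In the list of ICE-CBF regulators and other early cold factors, 14 of 37 tested loci rose and none fell, with a median of 0.69. In every refit 11 of the rises were called, and against HX17_MB 11 were called. The list as a whole did not keep its direction against HX17_MB, where 11 of 40 loci were higher, 8 lower and the median was -0.28. All 4 tested DREB1B loci (CBF1 in Arabidopsis), both DREB1C loci (CBF2) and all 4 RAV1 loci rose. DREB1B BnaC03g71900D had 0.408, 0.321 and 1.12 CPM in HX17_MA and 25.8, 18.5 and 18.0 CPM in HX17_CA, 33.2-fold more (5.05 ± 0.48, adjusted p = 0.00128). DREB1C BnaAnng34260D had 0.432, 1.67 and 1.49 CPM against 28.0, 28.5 and 62.7 CPM (5.06 ± 0.56). DREB1B BnaA03g13620D had no count in any HX17_MA library and 361 counts in HX17_CA. Its level was at least 127-fold higher there, taking 3 counts over the HX17_MA group as the floor.

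RAV1, an AP2 and B3 domain factor that responds to cold in Arabidopsis, held the highest levels of this list. Its locus BnaAnng40580D stood at 3.17, 2.83 and 2.25 CPM in HX17_MA and at 82.7, 70.9 and 48.8 CPM in HX17_CA (4.62 ± 0.30, adjusted p = 0.000225), and BnaCnng33070D at 9.69, 11.3 and 6.67 against 117, 97.8 and 73.2 CPM (3.38 ± 0.29). HX17_MB was itself above HX17_MA at BnaAnng40580D by 1.78, and the change against HX17_MB was 2.84 (adjusted p = 0.0016). Of the other members, 3 of 4 ZAT12 zinc-finger loci rose by 1.47 to 2.10, although none of these was called against HX17_MB. SCRM2 (ICE2), which acts above the CBF genes in Arabidopsis, rose at 1 of 5 loci by 1.09. Of the 37 loci tested for HX17_MB, 11 were higher there than in HX17_MA, with a list median of 0.72.

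Among 197 ethylene-responsive factors, a large family of AP2-domain regulators that includes the CBF genes, 35 rose and 17 fell. The rises numbered 19 without HX17_MA_1, 20 without HX17_MA_3 and 19 without HX17_CA_2, and the falls 11 without HX17_MA_1 or HX17_CA_2. Against HX17_MB 47 of 212 were higher and 55 lower (median -0.31). ERF106 BnaA10g30200D went from 0.600, 0.731 and 1.07 to 50.5, 34.4 and 39.6 CPM (5.69 ± 0.33, adjusted p = 0.000219). All 4 tested ERF107 loci rose (2.69 to 4.11), as did all 4 of ERF010 (1.53 to 3.20). In contrast, 5 of 6 ERF060 loci fell by 3.68 to 5.20, and all 5 falls were called in every refit. ERF060 BnaA03g54460D stood at 5.71, 7.98 and 4.05 CPM in HX17_MA and at 0.146, 0.0483 and 0.288 CPM in HX17_CA (-5.20 ± 0.57). HX17_MB was below HX17_MA at this locus by 2.45 (adjusted p = 0.002), and HX17_CA was below HX17_MB by 2.75 (adjusted p = 0.015).

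B-box and ZAT zinc fingers, which carry light and stress signals, rose at 31 of 119 loci and fell at 11. The rises numbered between 14 and 18 and the falls between 0 and 6 without any one of HX17_MA_1, HX17_MA_2, HX17_MA_3, HX17_CA_1 and HX17_CA_2, and 13 of the rises and none of the falls were called in every refit. Against HX17_MB 34 of 125 loci were higher and 28 lower. All 6 tested loci of COL6, a CONSTANS-like protein, rose by 1.46 to 4.51. COL6 BnaA02g13920D held 8.06, 5.73 and 6.32 CPM in HX17_MA and 136, 131 and 53.1 CPM in HX17_CA (3.99 ± 0.39, adjusted p = 0.00137), and HX17_CA_3 was the lowest of its group. All 4 COL2 and all 3 COL15 loci rose as well, while 4 of 11 BBX32 loci fell by 1.05 to 1.99.

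Circadian clock genes showed some of the largest changes. In the plant clock, LHY and CCA1 act near dawn, the pseudo-response regulators APRR9, APRR7, APRR5 and APRR1 (TOC1) follow one another through the day, and LUX, ELF3 and ELF4 act in the evening. Leaves of both groups were taken in the morning. Of 94 tested loci 29 rose and 8 fell, and 21 of the rises and 2 of the falls were called in every refit. The falls numbered 2 without HX17_MA_1, HX17_MA_3 or HX17_CA_2 and 5 without HX17_MA_2 or HX17_CA_1.

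All 6 tested APRR5 loci rose, by 2.47 to 7.90, and all 3 APRR1 loci, by 3.79 to 6.55. APRR5 BnaC07g29960D (chromosome C07, 34630739 to 34633111) stood at 0.0959, 0.321 and 0.708 CPM in HX17_MA and at 111, 99.8 and 61.7 CPM in HX17_CA, a 239-fold rise (7.90 ± 0.62, adjusted p = 0.000638). Its counterpart BnaA06g26980D went from 0.480, 1.11 and 0.635 to 149, 131 and 86.4 CPM (7.37 ± 0.42, adjusted p = 0.000219). APRR1 BnaCnng43250D went from 0.216, 0.0584 and 0.171 to 11.9, 14.7 and 17.1 CPM (6.55 ± 0.42).

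ADO2 (LKP2), a light-sensing F-box protein of the Arabidopsis clock, had 2 counts over the HX17_MA libraries at BnaA07g01250D and 938 over HX17_CA. The ratio of levels was 497, with an exact 95% interval of 137 to 4107 for counting error alone. Of the evening genes, 2 of 6 LUX loci rose by 5.41 and 5.58 and 1 of 7 ELF3 loci by 1.83. RVE1 rose at 5 of 6 loci and RVE2 at both, by up to 3.31 and 3.43. These are MYB-like factors related to LHY.

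APRR9, the earliest of the pseudo-response regulators in the day, fell. At BnaA04g26750D the HX17_MA libraries lay close together at 198, 200 and 205 CPM, and the HX17_CA libraries were at 32.2, 34.2 and 48.9 CPM (-2.39 ± 0.23, adjusted p = 0.00128). A further APRR9 locus fell by 2.18 and 2 of 3 RVE8 loci fell by 1.61 and 1.67. LHY BnaC05g00840D, the most abundant clock locus, had 321, 248 and 324 CPM against 535, 442 and 386 CPM. Its groups did not overlap, but it was not called (0.61 ± 0.21, adjusted p = 0.101).

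Light signalling genes split evenly, with 7 rises and 7 falls among 57 loci. The rises numbered 2 or 3 without any one of HX17_MA_1, HX17_MA_2, HX17_MA_3, HX17_CA_1 and HX17_CA_2 and 11 without HX17_CA_3, and the falls 4 without HX17_MA_2 or HX17_MA_3 and 1 without HX17_CA_2. Both loci of the blue-light receptor CRY1 rose in every refit. At BnaC09g25510D the levels were 16.7, 18.9 and 21.9 CPM in HX17_MA and 74.4, 65.6 and 47.3 CPM in HX17_CA (1.70 ± 0.24, adjusted p = 0.00541). The growth-promoting factor PIF4 fell at 3 of 4 loci. PIF4 BnaA03g19970D had 10.3, 17.1 and 13.3 CPM against 3.32, 2.10 and 3.40 CPM (-2.20 ± 0.31).

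Starch breakdown genes rose at several steps of the pathway. Leaves store starch by day, and in the dark glucan dikinases and phosphatases open the granule for beta-amylases. Of 67 tested loci 26 rose and 4 fell (median 0.52). The rises numbered 16 without HX17_MA_1 and 17 without HX17_CA_2, and the falls 0 without HX17_MA_1, 2 without HX17_MA_3 and 1 without HX17_CA_2. Against HX17_MB 24 of the rises and all 4 falls were called.

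GWD1, which phosphorylates the granule surface, rose at 4 of 5 loci and GWD3 at 3 of 5, each in every refit. GWD1 BnaA09g47750D had 2.04, 1.90 and 2.30 CPM in HX17_MA and 19.3, 26.6 and 37.7 CPM in HX17_CA (3.74 ± 0.31, adjusted p = 0.000688). BAM3 is the main beta-amylase of Arabidopsis leaves, and its 4 loci rose by 0.96 to 1.91. BAM3 BnaC07g34180D, the most abundant locus of the list, held 237, 169 and 257 CPM against 807, 672 and 377 CPM (1.48 ± 0.31, adjusted p = 0.0208), a call that was lost without HX17_CA_1, HX17_CA_2 or any of the HX17_MA libraries. Both DPE1 loci and both PHS2 loci, which act on glucans, rose as well. The 4 falls were 2 of 3 BAM1 and both BAM6 loci. BAM6 BnaA05g10780D fell from 19.3, 17.4 and 17.5 to 7.20, 8.32 and 5.01 CPM (-1.40 ± 0.25).

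Trehalose-phosphate synthases of the TPS8 to TPS11 class, which have regulatory roles in sugar signalling, formed a list made after the values had been seen. Of 12 tested loci 7 rose and none fell, with a median of 2.50, and 6 were called in every refit. Their summed level was between 70.3 and 83.4 CPM in HX17_MA and between 185 and 469 CPM in HX17_CA. TPS11 BnaC09g51060D held 2.04, 2.02 and 1.61 CPM against 64.9, 66.4 and 24.7 CPM, 27.5-fold more (4.78 ± 0.42, adjusted p = 0.000883). Both loci of TPS8 (3.84 and 3.89) and of TPS9 (3.46 and 3.62) rose too.

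Genes for compatible solutes rose in smaller numbers. In raffinose synthesis 4 of 14 loci rose and none fell, with 2 rises without HX17_MA_1, HX17_MA_3, HX17_CA_1 or HX17_CA_2. GOLS3 BnaC08g50010D, a galactinol synthase at the entry to the pathway, had 16.7, 12.9 and 14.2 CPM in HX17_MA and 142, 115 and 161 CPM in HX17_CA (3.26 ± 0.23, adjusted p = 0.000407). In proline metabolism 6 of 18 loci rose and none fell (median 0.83), with 3 rises without HX17_MA_3 and 2 without HX17_CA_2. These were 2 of 4 loci each of P5CSA, P5CSB and PROC1, the enzymes of proline synthesis. P5CSB BnaC08g26550D went from 23.8, 22.1 and 28.4 to 66.6, 63.0 and 69.3 CPM (1.42 ± 0.20, adjusted p = 0.00522). P5CSA BnaC04g05620D went from 70.7, 73.2 and 108 to 234, 251 and 171 CPM (1.38 ± 0.25), a call lost without HX17_CA_2 or HX17_MA_1.

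Sucrose genes had a small list median (0.13), with 7 rises and 1 fall among 74 loci. The share that rose was above the 4.58% of all tested genes. Without 1 library the rises numbered 3 for HX17_MA_1, 4 for HX17_MA_2 or HX17_MA_3, 2 for HX17_CA_2 and 11 for HX17_CA_3, and the fall was lost in each refit. The sucrose-phosphate synthase SPS1 BnaA02g04800D rose from 1.61, 1.46 and 2.51 to 9.36, 9.86 and 8.73 CPM (2.32 ± 0.29), though against HX17_MB its change was 1.06 (adjusted p = 0.065).

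Genes of flavonoid and anthocyanin synthesis mostly rose where they were called. Flavonoids are phenolic pigments that screen light. Of 71 tested loci 23 rose and 2 fell (median 0.70), all 25 of them also against HX17_MB. The rises numbered 15 without HX17_MA_1, and the falls 1 without HX17_MA_1, HX17_MA_3 or HX17_CA_2. PAL, which opens the phenylpropanoid pathway, rose at 3 of 4 PAL1 and 4 of 5 PAL2 loci. PAL2 BnaA09g33560D went from 2.18, 3.62 and 2.64 to 30.9, 52.1 and 26.5 CPM (3.70 ± 0.35, adjusted p = 0.00123).

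Chalcone synthase, the first enzyme of flavonoid synthesis proper, showed the largest rises of the list. All 3 tested CHS3 loci rose by 4.57 to 6.93. CHS3 BnaC09g43250D (chromosome C09, 44566317 to 44567579) held 0.456, 0.175 and 0.366 CPM in HX17_MA and 16.8, 74.0 and 31.1 CPM in HX17_CA, 119-fold more (6.90 ± 0.66, adjusted p = 0.0013). CHS1 BnaA10g19670D held 0.336, 0.351 and 0.488 CPM against 12.1, 75.2 and 39.0 CPM (6.73 ± 0.70). At both loci HX17_CA_2 was the highest library and HX17_CA_1 the lowest. Chalcone isomerase (CHI) rose at 4 of 5 loci and flavonol synthase FLS1 at 2 of 3. MYB75 (PAP1), an anthocyanin regulator in Arabidopsis, fell at 1 of 3 loci. At BnaCnng28030D it had 102, 89.6 and 66.1 CPM against 19.2, 15.5 and 30.8 CPM (-1.98 ± 0.31, adjusted p = 0.00727).

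Glucosinolate genes, which make and break down the sulfur-rich defence compounds of the cabbage family, fell more often than they rose. Of 86 tested loci 16 fell and 5 rose (median -0.50), but 11 of the falls and 1 of the rises were called against HX17_MB. The falls numbered 4 without HX17_MA_1 or HX17_CA_2 and 10 without HX17_MA_2 or HX17_CA_1, and the rises between 1 and 3 without HX17_MA_1, HX17_MA_3, HX17_CA_1 or HX17_CA_2. Among the falls were the indolic branch regulators MYB34 (2 of 11 loci) and MYB51 (2 of 3), the sulfotransferases SOT16 (all 4), SOT17 (1 of 2) and SOT18 (2 of 6), and UGT74B1 (both). The others were 1 locus each of CYP83A1 (-2.55), FMOGS-OX1 (-0.97) and SUR1 (-1.19). MYB34 BnaA07g31540D fell from 6.38, 7.07 and 9.81 to 0.175, 0.701 and 0.519 CPM (-4.04 ± 0.47, adjusted p = 0.00269). ESP BnaC06g06830D, which directs glucosinolate breakdown, rose from 2.71, 3.24 and 3.52 to 7.78, 14.7 and 21.0 CPM (2.20 ± 0.37), with an adjusted p of 0.052 against HX17_MB.

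Lipid desaturases were called against HX17_MA at near the share of all tested genes. Genes of lipid transfer and wax rose more often than the 4.58% of all tested genes. Among 54 lipid desaturases 3 rose and 2 fell. The falls numbered 1 without HX17_MA_2, HX17_MA_3, HX17_CA_1 or HX17_CA_2. ADS2, a desaturase that Arabidopsis needs in the cold, rose at 2 of 6 loci. ADS2 BnaC04g42440D stood at 4.87, 10.9 and 7.79 CPM in HX17_MA and at 69, 58.3 and 96.7 CPM in HX17_CA (3.25 ± 0.35, adjusted p = 0.00191). Among 116 loci of lipid-transfer proteins and wax synthesis 15 rose and 2 fell, with 2 rises without HX17_MA_1 and 4 without HX17_CA_2, and 0 or 1 fall without any one of HX17_MA_1, HX17_MA_2, HX17_MA_3, HX17_CA_1 and HX17_CA_2. All 15 of these rises were called against HX17_MB too. Against HX17_MB 51 of 116 tested loci were higher and 7 lower (median 1.12), and in HX58 38 rose and 4 fell. Of 52 desaturase loci 7 were higher and none lower against HX17_MB. CER3 BnaCnng19590D, an enzyme of wax alkanes, rose from 4.34, 2.66 and 2.66 to 42.0, 54.1 and 24.3 CPM (3.64 ± 0.37).

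RNA-binding proteins rose at 36 of 198 loci of the RNA chaperone and DEAD-box helicase list and fell at 1 (median 0.50). The rises numbered between 10 and 21 without any one of HX17_MA_1, HX17_MA_2, HX17_MA_3, HX17_CA_1 and HX17_CA_2, and 29 were called against HX17_MB. The fall was lost in the same 5 refits. The glycine-rich proteins moved most. GRP2A BnaA04g12350D (chromosome A04, 10493279 to 10494057) had 0.0719, 0.234 and 0.244 CPM in HX17_MA and 44.3, 27.4 and 27.5 CPM in HX17_CA, 179-fold more (7.49 ± 0.46, adjusted p = 0.000225). GRP10, a related RNA-binding protein, rose at 3 of 4 loci in every refit. GRP10 BnaC01g00280D stood at 15.2, 13.7 and 15.2 CPM against 175, 106 and 144 CPM (3.27 ± 0.25). The helicases rose by less, for example RH25 by 1.75 and RH9 by 2.32. The most abundant helicase, RH14 BnaC03g32450D, had 278, 337 and 355 CPM against 218, 197 and 228 CPM and was not called (-0.59 ± 0.19, adjusted p = 0.0845). None of the 8 named loci of the cold-shock proteins CSP1, CSP3 and CSP4 was called against HX17_MA (adjusted p between 0.111 and 0.746). Against HX17_MB, CSP1 BnaA01g01560D was higher by 1.05 (adjusted p = 0.018) and CSP4 BnaA08g19010D by 1.33 (adjusted p = 0.0024). Both loci also rose in HX58. CSP1 BnaAnng08360D, CSP3 BnaA07g02430D and CSP4 BnaA09g43450D were called neither against HX17_MB nor in HX58.

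Ribosomal protein genes lay higher in HX17_CA, by an amount and with a number of calls that depended on the control. Of 322 loci of the 40S subunit 19 rose, and of 476 of the 60S subunit 30 rose, with no falls. The shares that rose were near the 4.58% of all tested genes. The medians were 0.52 and 0.52, and the log2 fold change was positive at 292 and 438 loci. Against HX17_MB, 205 of 322 loci of the 40S and 310 of 476 of the 60S subunit were higher and 6 of each lower (medians 0.91 and 0.90), and in HX58 149 of 323 and 252 of 474 rose. The 40S rises against HX17_MA numbered 0 without HX17_MA_1, HX17_MA_2, HX17_MA_3 or HX17_CA_2, 15 without HX17_CA_1 and 18 without HX17_CA_3. The 60S rises numbered 0 to 2 without the former 4 libraries, 12 without HX17_CA_1 and 22 without HX17_CA_3. RPL10A BnaC05g10550D went from 25.5, 21.1 and 25 to 48.2, 54.6 and 54.0 CPM (1.13 ± 0.20, adjusted p = 0.0118). RPS18A BnaA09g23350D went from 19.6, 19.8 and 23.4 to 37.2, 43.7 and 43.5 CPM (0.99 ± 0.20, adjusted p = 0.0204). Of 153 chloroplast ribosomal proteins 5 rose and none fell, and none of the 5 was called in every refit. The share that rose was not above that of all tested genes. Against HX17_MB 122 of 156 were higher and 1 lower (median 1.05), and HX17_MB was below HX17_MA at 7 of 154.

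Photosynthesis genes fell at part of their loci against HX17_MA, and the sign of the list medians depended on the control. Of 67 light-harvesting chlorophyll proteins 19 fell and none rose (median -0.46), and of 139 photosystem and oxygen-evolving subunits 20 fell and 1 rose (median -0.39). Against HX17_MB 3 of these 19 and 6 of these 20 falls were called. In that comparison 17 of 66 light-harvesting loci were higher and 3 lower (median 0.30). Of 139 photosystem loci 8 were higher and 6 lower (median 0.17). Over all genes tested against HX17_MB 12.5% were higher and 13.2% lower, so both photosystem counts lay below these shares. HX17_MB itself was below HX17_MA at 31 of 67 light-harvesting loci, with a median of -0.76, and at 14 of 139 photosystem loci. Summed levels in HX17_MA and HX17_CA overlapped for the light-harvesting list (110090 to 124225 against 94664 to 111251 CPM). For the photosystem list they did not (75268 to 94035 against 56032 to 61960 CPM). The light-harvesting falls numbered 12 without HX17_MA_1, 7 without HX17_MA_3, 9 without HX17_CA_1 and 5 without HX17_CA_2. The photosystem rise was lost and the falls numbered between 2 and 7 without any one of HX17_MA_1, HX17_MA_2, HX17_MA_3, HX17_CA_1 and HX17_CA_2. LHCB1.3 BnaA04g20150D, the most abundant light-harvesting locus, held 5391, 5402 and 6334 CPM in HX17_MA and 7924, 7442 and 12270 CPM in HX17_CA. Its groups did not overlap, but it was not called (0.69 ± 0.23, adjusted p = 0.0962). It was higher against HX17_MB by 1.49 (adjusted p = 0.0035).

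Several of the falls were called against both controls. Rubisco activase (RCA), which keeps the carbon-fixing enzyme active, was at 4969, 3872 and 4553 CPM in HX17_MA and at 1917, 1729 and 1331 CPM in HX17_CA at BnaC03g22220D (-1.43 ± 0.21, adjusted p = 0.00645). At BnaA03g18710D it was at 4605, 3316 and 3918 against 1378, 1365 and 927 CPM (-1.69 ± 0.23), and HX17_MB lay within 0.18 of HX17_MA at both loci. PSBT BnaC06g04530D, a small photosystem II protein, fell from 145, 135 and 163 to 19.0, 22.0 and 9.97 CPM (-3.12 ± 0.31, adjusted p = 0.0015). LHCB4.2 BnaA05g29390D fell from 2361, 2192 and 2168 to 897, 775 and 723 CPM (-1.49 ± 0.18, adjusted p = 0.00317). Its change against HX17_MB was smaller, at -0.71 (adjusted p = 0.02), and HX17_MB was below HX17_MA there by 0.78 (adjusted p = 0.025). For CAB36 BnaA02g29010D the levels were 3066, 2730 and 3011 CPM against 1424, 1259 and 1547 CPM (-1.06 ± 0.18), and its change against HX17_MB was -0.36 (adjusted p = 0.3).

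Nitrate assimilation genes also depended on the control. In this pathway nitrate reductase (NIA) and nitrite reductase (NIR) turn nitrate into ammonium, siroheme synthase makes a cofactor of NIR, and LBD37 to LBD39 are nitrogen-responsive repressors in Arabidopsis. The list was made after the values had been seen. Of 51 tested loci 23 fell and 1 rose, with a median of -1.22, and 16 falls were called in every refit. The rise was lost without HX17_MA_2, HX17_MA_3, HX17_CA_1 or HX17_CA_2. The summed level was between 2137 and 2282 CPM in HX17_MA and between 785 and 972 CPM in HX17_CA. Against HX17_MB the median was -0.05 and 3 of the 23 falls were called, while HX17_MB was itself below HX17_MA at 21 of 49 loci, with a median of -1.21.

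NIA2 BnaA07g20840D (chromosome A07, 16243114 to 16246657) stood at 130, 206 and 116 CPM in HX17_MA and at 10.1, 12.1 and 15.6 CPM in HX17_CA, a 12.0-fold lower level (-3.58 ± 0.31, adjusted p = 0.000749). Against HX17_MB its change was -0.65 (adjusted p = 0.1). NIA1 BnaC06g38300D had 366, 498 and 419 CPM against 83.9, 91.3 and 112 CPM (-2.16 ± 0.22), and its change against HX17_MB had the opposite sign (0.75, adjusted p = 0.15). NIR1 BnaC07g05090D fell from 18.1, 17.6 and 15.2 to 2.07, 4.23 and 3.26 CPM (-2.41 ± 0.30). Siroheme synthase (cysG) BnaA04g10650D fell from 21.6, 30.8 and 22.7 to 0.525, 1.89 and 2.88 CPM (-3.82 ± 0.53). LBD37 BnaC02g16720D fell from 67.4, 51.6 and 72 to 13, 8.56 and 7.95 CPM (-2.69 ± 0.27). None of these last 3 was called against HX17_MB. An asparagine synthetase, BnaCnng72260D, which stores nitrogen as asparagine, fell from 28.6, 32.3 and 21.6 to 2.39, 2.61 and 0.893 CPM (-3.80 ± 0.41) and was called against HX17_MB too (-1.85, adjusted p = 0.016).

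Aquaporins, the water channels of cell membranes, fell at 14 of 71 loci and rose at 2 (median -0.67). The falls numbered 7 without HX17_CA_2, and the 2 rises were lost without HX17_MA_1, HX17_MA_3 or HX17_CA_2 and became 1 without HX17_CA_3. All 8 tested PIP2-2 loci fell, with log2 fold changes between -5.28 and -1.92. PIP2-2 BnaC03g72010D went from 46.8, 89.5 and 31.8 to 1.25, 0.459 and 2.62 CPM, a 39.0-fold lower level (-5.28 ± 0.66, adjusted p = 0.00324). PIP1.1 BnaA04g00710D went from 17.9, 23.1 and 14.8 to 3.00, 2.78 and 4.03 CPM (-2.51 ± 0.28). Both PIP2-6 loci rose against this trend. PIP2-6 BnaC03g21800D had 3.84, 17 and 5.05 CPM against 37.1, 39.8 and 76.1 CPM (2.56 ± 0.57, adjusted p = 0.0268), a call lost without HX17_CA_2, HX17_MA_1 or HX17_MA_3. The list median against HX17_MB was positive, at 0.32, with 11 of 69 loci higher and 13 lower, and 11 of the 14 falls were called there.

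**Figure D3:**
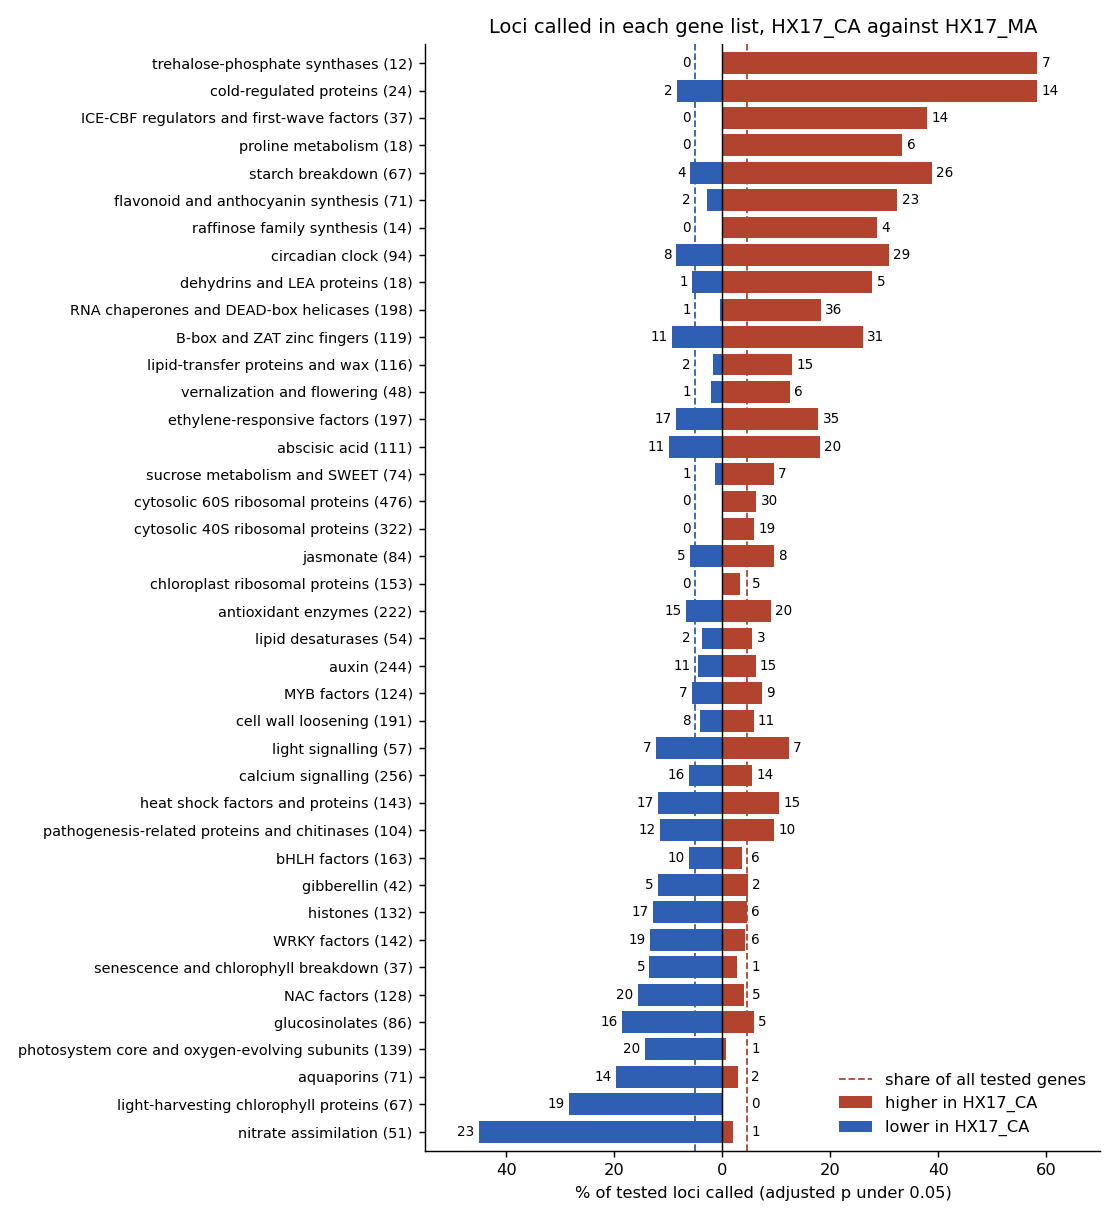
Share of the tested loci of each gene list that was called higher (red, to the right) or lower (blue, to the left) in HX17_CA, with the number called beside each bar and the number tested in brackets. Dashed lines mark the shares of all tested genes, 4.58 and 5.02%, and cold-regulated proteins and nitrate assimilation lie near the ends of the range.

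Abscisic acid (ABA) genes rose and fell, also within the classes of receptors, phosphatases, kinases and factors. ABA receptors of the PYL family bind the hormone and then block PP2C phosphatases, which releases SnRK2 kinases. Of 111 tested loci 20 rose and 11 fell, with 18 and 10 also called against HX17_MB. The rises numbered 8 without HX17_MA_1, 13 without HX17_CA_1 and 9 without HX17_CA_2, and the falls between 4 and 6 without any one of HX17_MA_1, HX17_MA_2, HX17_MA_3, HX17_CA_1 and HX17_CA_2. Receptors rose at 3 of 4 PYL5, 5 of 6 PYL6, 2 of 3 PYL4 and 2 of 3 PYL7 loci, and fell at 2 of 4 PYL1 loci. PYL4 BnaC04g56560D went from 5.08, 3.16 and 3.27 to 37.2, 31.8 and 14.8 CPM (2.86 ± 0.39, adjusted p = 0.00444).

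The phosphatases HAB1 (both loci), PP2CA (2 of 4) and ABI1 (1 of 7) fell, while 1 of 4 HAB2 loci rose. Of the SnRK2 kinases, both SRK2D loci rose by 1.35 and 1.57 and 1 of 6 SRK2A loci rose by 0.96, and the SRK2J locus fell by 3.51. Of the ABA-responsive factors, ABF3 fell at all 3 loci and ABF1 rose at 2 of 3. ABF3 BnaC01g04330D had 15.7, 21.3 and 18.5 CPM against 5.48, 4.54 and 6.48 CPM (-1.75 ± 0.25, adjusted p = 0.00512). CYP707A1, which breaks ABA down, rose at 2 of 3 loci. At BnaA03g43960D it had 0.336, 0.468 and 0.317 CPM against 7.58, 7.16 and 5.68 CPM (4.18 ± 0.33, adjusted p = 0.000648).

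Other hormone lists were near the share of all genes or split. Jasmonate genes rose at 8 and fell at 5 of 84 loci. MYC2, the main jasmonate-response factor, rose at 2 of its 3 loci and fell at the other, BnaC08g07580D, from 4.56, 3.71 and 4.35 to 0.233, 0.749 and 0.144 CPM (-3.45 ± 0.57). TIFY7 BnaCnng65670D, a JAZ repressor, rose from 10.1, 11.5 and 8.20 to 37.4, 44.9 and 30 CPM (1.91 ± 0.25). Gibberellin genes rose at 2 and fell at 5 of 42 loci. The synthesis enzyme GA3OX1 rose at both loci, at BnaC05g11920D from 0.264, 0.234 and 0.562 to 3.88, 3.53 and 1.87 CPM (3.11 ± 0.51), and the gibberellin-regulated GASA6 BnaAnng38970D fell from 361, 624 and 371 to 99.5, 131 and 87.8 CPM (-2.09 ± 0.28). Auxin genes rose at 15 and fell at 11 of 244 loci. The falls included 4 of 7 SAUR36 and 2 of 9 SAUR32 loci, small growth-related proteins. SAUR32 BnaC09g29950D had 35.6, 32.5 and 29.4 CPM against 8.54, 8.44 and 7.52 CPM (-1.99 ± 0.21, adjusted p = 0.00182). Counts in these lists depended on single libraries: without any one of HX17_MA_1, HX17_MA_2, HX17_MA_3, HX17_CA_1 and HX17_CA_2 the jasmonate list had 3 to 6 rises and 1 or 2 falls, the gibberellin list 1 to 3 and 1 to 4, and the auxin list 4 to 7 and 4 to 10. Without HX17_CA_3 the gibberellin rises numbered 4.

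Families of stress and defence transcription factors fell more than they rose. WRKY factors, which act mainly in defence, fell at 19 of 142 loci and rose at 6 (median -0.51). The falls numbered 8 without HX17_MA_1 or HX17_CA_2 and 11 without HX17_MA_3, and 18 were called against HX17_MB, where 65 of 150 loci were lower and 4 higher. The rises numbered between 1 and 3 without any one of HX17_MA_1, HX17_MA_2, HX17_MA_3, HX17_CA_1 and HX17_CA_2. WRKY11 fell at 4 of 6 loci, WRKY53 at both, WRKY15 at both and WRKY40 at 2 of 3. WRKY11 BnaC07g43320D had 6.50, 7.04 and 6.62 CPM against 0.700, 0.629 and 0.490 CPM (-3.46 ± 0.30, adjusted p = 0.000803). WRKY28 BnaC07g35130D rose from 0.144, 0.205 and 0.122 to 4.32, 2.64 and 1.93 CPM (4.22 ± 0.51).

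NAC factors, many of which act in stress and senescence, fell at 20 of 128 loci and rose at 5 (median -0.43). The falls numbered between 5 and 12 without any one of HX17_MA_1, HX17_MA_2, HX17_MA_3, HX17_CA_1 and HX17_CA_2, the rises were lost without any one of those and became 9 without HX17_CA_3, and 13 falls and 1 rise were called against HX17_MB. All 4 NAC102 loci fell, at BnaC02g42720D from 10.5, 6.75 and 11.9 to 1.20, 1.23 and 1.18 CPM (-3.01 ± 0.31, adjusted p = 0.0015). MYB factors (9 rises and 7 falls of 124 loci) and bHLH factors (6 and 10 of 163) were split, not far from the shares of all tested genes (4.58 and 5.02%). The counts became 1 to 5 rises and 3 to 7 falls for MYB and 2 to 6 and 0 to 2 for bHLH without any one of HX17_MA_1, HX17_MA_2, HX17_MA_3, HX17_CA_1 and HX17_CA_2. The bHLH rises became 12 without HX17_CA_3.

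Vernalization genes showed a rise of VIN3. In Arabidopsis, VIN3 is induced by weeks of cold and takes part in silencing FLC, a repressor of flowering. All 4 tested VIN3 loci rose (3.44 to 7.65), 3 of them in every refit and all 4 against HX17_MB. VIN3 BnaA02g08140D (chromosome A02, 3862183 to 3864694) had 4 counts over HX17_MA, at 0, 0.117 and 0 CPM, and stood at 6.41, 4.11 and 2.85 CPM in HX17_CA (6.86 ± 0.89, adjusted p = 0.00373). At BnaA03g10310D 1 count in HX17_MA faced 258 in HX17_CA, a ratio of levels of 273 with an exact 95% interval of 48.6 to 10833 for counting error alone.

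FLC BnaC03g04170D was lower in HX17_CA, with 8.06, 3.80 and 6.86 CPM against 2.68, 2.30 and 2.51 CPM (-1.32 ± 0.33, adjusted p = 0.0384). The groups did not overlap, but the call was lost without HX17_CA_1, HX17_CA_2, HX17_MA_1 or HX17_MA_3. FLC BnaA10g22080D was at or under 0.584 CPM in each library and was not called (-1.08 ± 0.64). VIL2, a relative of VIN3, rose at BnaC07g42420D (from 5.83, 4.53 and 4.98 to 11.1, 14.7 and 15.1 CPM, 1.41 ± 0.24), a call lost without HX17_CA_2, and was not called at the other 6 tested loci. Over the whole vernalization and flowering list 6 of 48 loci rose and 1 fell, with 3 rises without HX17_CA_2 and 2 falls without HX17_MA_2 or HX17_CA_3. TEM1 BnaC05g20560D, a factor that delays flowering in Arabidopsis, had 5 counts over HX17_MA and stood at 20.8, 14.1 and 7.55 CPM in HX17_CA (8.27 ± 0.70, adjusted p = 0.000749). HX17_MB was above HX17_MA there by 4.01 (adjusted p = 0.046), and the change against HX17_MB was 4.29.

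Stress-protein lists were mixed. Heat shock factors and proteins rose at 15 and fell at 17 of 143 loci. All 4 HSP90-3 loci rose, at BnaA03g11110D from 13.2, 7.07 and 12.6 to 32.6, 33.5 and 33.5 CPM (1.60 ± 0.27), and all 4 loci of the mitochondrial small heat shock protein HSP23.5 fell, at BnaC09g27850D from 9.78, 16.1 and 12.9 to 1.84, 2.42 and 0.980 CPM (-2.88 ± 0.37). Antioxidant enzymes rose at 20 and fell at 15 of 222 loci. All 4 loci of the ascorbate peroxidase APX1 rose, at BnaC08g43490D from 18.4, 20.4 and 28.3 to 87.4, 109 and 84.0 CPM (2.06 ± 0.24, adjusted p = 0.00272). The glutathione transferase GSTU17 rose at all 3 loci (3.11 to 3.74), and GSTU4 BnaA04g28600D fell from 22.5, 16.4 and 18.4 to 4.05, 3.96 and 2.85 CPM (-2.40 ± 0.26). The heat shock list had 1 to 7 rises and 4 to 11 falls, and the antioxidant list 6 to 17 and 2 to 8, without any one of HX17_MA_1, HX17_MA_2, HX17_MA_3, HX17_CA_1 and HX17_CA_2.

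Calcium signalling genes rose at 14 and fell at 16 of 256 loci, near the shares of all tested genes (4.58 and 5.02%). These became 2 to 6 and 5 to 13 without any one of HX17_MA_1, HX17_MA_2, HX17_MA_3, HX17_CA_1 and HX17_CA_2. Without HX17_CA_3 they were 22 and 21. Against HX17_MB 23 of 277 were higher and 79 lower. Loci matched to different calmodulins moved in opposite directions. CAM4 BnaC04g34470D rose from 11.1, 11.6 and 10.5 to 29.1, 32.6 and 39.4 CPM (1.61 ± 0.22), and Calm4 BnaC09g02710D fell from 84.1, 97.2 and 96.7 to 25.7, 16.1 and 18.0 CPM (-2.22 ± 0.24). Linker histones fell within a histone list of 6 rises and 17 falls in 132 loci (median 0.06). Against HX17_MB that list went the other way, with 70 of 133 loci higher, 13 lower and a median of 0.92, and HX17_MB was below HX17_MA at 42 of 134 loci. Markers of dividing cells were higher at 20 of 38 loci and lower at 1 against HX17_MB. That list was set to include histone H4, so it shares loci with the histone list and is not separate from it. The part of dividing cells in the result was not tested. Histone H1.2 (At2g30620) fell at 6 of 8 loci, at BnaC04g41350D from 132, 98.9 and 117 to 34.6, 23.5 and 29.5 CPM (-1.99 ± 0.23, adjusted p = 0.0026). The histone falls numbered 8 without HX17_MA_1, 11 without HX17_MA_3 and 6 without HX17_CA_2, and the rises 0 to 2 without any one of HX17_MA_1, HX17_MA_2, HX17_MA_3, HX17_CA_1 and HX17_CA_2. Cell wall loosening genes rose at 11 and fell at 8 of 191 loci, also near the shares of all tested genes. These became 4 to 19 and 0 to 5 without any one of HX17_MA_1, HX17_MA_2, HX17_MA_3, HX17_CA_1 and HX17_CA_2. Of 196 loci tested against HX17_MB, 52 were higher and 29 lower (median 0.75).

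Pathogenesis-related proteins and chitinases rose at 10 and fell at 12 of 104 loci (median -0.47), with 0 to 8 rises and 4 to 12 falls without any one of HX17_MA_1, HX17_MA_2, HX17_MA_3, HX17_CA_1 and HX17_CA_2. Against HX17_MB the direction turned, with 25 of 98 loci higher, 14 lower and a median of 0.41, and HX17_MB was below HX17_MA at 21 of 101 loci. GNS1 BnaA07g17230D, a glucanase that attacks fungal walls, fell from 85.1, 143 and 104 to 30.1, 28.5 and 18.6 CPM (-2.10 ± 0.28, adjusted p = 0.0044), and its change against HX17_MB was -0.35 (adjusted p = 0.29). The defensin AFP3 BnaC02g23620D rose from 184, 152 and 134 to 378, 308 and 442 CPM (1.27 ± 0.22). This call was not kept in every refit and was not made against HX17_MB. Of the senescence and chlorophyll breakdown genes 1 of 37 rose and 5 fell, with 2 falls without HX17_MA_1 or HX17_CA_2 and 3 without HX17_MA_2 or HX17_CA_1, and the rise was lost without any one of HX17_MA_1, HX17_MA_2, HX17_MA_3, HX17_CA_1 and HX17_CA_2. SAG12 BnaC01g26050D, a protease specific to senescing leaves, fell from 2.78, 3.36 and 2.49 to 0.0875, 0.121 and 0.0288 CPM (-5.10 ± 0.54, adjusted p = 0.00183).

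Some of the largest changes lay outside these lists. MSRA3 BnaC03g03100D, which repairs oxidized methionine, had 3 counts over HX17_MA and 2226 over HX17_CA, where it stood at 5.22, 28.8 and 24.7 CPM. The ratio of levels was 786, with an exact 95% interval of 269 to 3813. BnaA06g21800D, annotated as a 21 kDa protein, had 1 count over HX17_MA and stood at 6.06, 8.99 and 17.2 CPM in HX17_CA, a ratio of 1245 with an interval of 223 to 49233. Both intervals cover counting error only.

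The largest falls outside the lists were of transporters and enzymes. AGT3 BnaC03g21300D, an aminotransferase, fell from 48.4, 54.2 and 45.9 to 3.03, 1.67 and 0.663 CPM (-4.79 ± 0.49, adjusted p = 0.00161). The ABC transporter ABCC3 fell at BnaA03g32640D from 14.8, 41.3 and 26.1 to 1.81, 1.04 and 0.403 CPM (-4.66 ± 0.58) and at BnaC03g73620D from 57.5, 105 and 77.5 to 10.5, 5.90 and 3.20 CPM (-3.62 ± 0.45). ABCF2 BnaC09g46770D fell from 10.3, 8.62 and 10.4 to 0.729, 0.169 and 0.115 CPM (-4.86 ± 0.59). PHT1-9 BnaA02g18110D, a phosphate transporter, fell from 10.6, 18.4 and 14.4 to 0.554, 1.57 and 1.5 CPM (-3.57 ± 0.42). XCP2 BnaC05g16070D, a cysteine protease known from xylem, fell from 10.4, 16.1 and 8.03 to 0.379, 0.218 and 0.461 CPM (-5.03 ± 0.42), and its change against HX17_MB was -1.75 (adjusted p = 0.054).

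Of the genes with the highest levels, the new transcript Novel01817 rose from 184, 185 and 111 to 769, 780 and 1731 CPM (2.77 ± 0.38, adjusted p = 0.00456). The authors' table matches it to no protein. Transketolase TKL-1 BnaA09g38720D, an enzyme of the Calvin cycle, rose from 455, 338 and 320 to 618, 661 and 815 CPM (0.91 ± 0.22, adjusted p = 0.0342), a call lost without HX17_CA_1, HX17_CA_2, HX17_MA_2 or HX17_MA_3.

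The label of the tissue, leaf, was checked with marker lists of cell types. Mesophyll markers summed to between 97960 and 124175 CPM in HX17_MA and between 101665 and 114933 CPM in HX17_CA, with 3 rises and 4 falls in 32 loci, and the falls but none of the rises were called in every refit. Shoot meristem and flower markers summed to at most 0.552 CPM in any library, and none of the 24 listed was tested. Of 59 guard cell loci 1 rose, of 32 phloem companion cell loci 2 fell, of 22 epidermis loci 1 fell, and of 40 loci of dividing cells 1 rose and 1 fell. None of 3 trichome and 11 xylem loci was called. Root markers, with 4 tested loci, summed to between 54.2 and 59.5 CPM in HX17_MA and between 24.8 and 29.9 CPM in HX17_CA, with 2 falls. Whether a change in the cell types of the leaf had a part in any result was not tested. In whole leaves, fewer cells of a type and less RNA per cell cannot be told apart.

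The response of HX17 was set beside that of HX58 under the same treatment. In HX58, 4955 of 50811 genes rose (9.75%) and 5320 fell (10.5%). A test of the difference between the responses, on the 12 libraries of both varieties, called 506 of 56322 genes with a larger log2 fold change in HX17 (0.898%) and 455 with a smaller one (0.808%). The total of 961 became 398 without HX17_CA_2, 501 without HX17_MA_1, 497 without HX17_MA_2, 621 without HX17_MA_3, 502 without HX58_CA_1, 423 without HX58_MA_2 and 517 without HX58_MA_3.

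A few cold genes rose more in HX17. KIN2 BnaA02g02910D rose by 4.53 in HX17 and 2.65 in HX58 (difference 1.87 ± 0.25, adjusted p = 0.0027), and COR15B BnaC03g23750D by 5.89 and 3.79 (difference 2.09 ± 0.30, adjusted p = 0.0042). Of 26 cold-regulated loci 4 had a larger response in HX17 and none a smaller one, with a median difference of 0.42. Of 42 loci of ICE-CBF regulators and early factors 3 had a larger response, and of 21 dehydrin and LEA loci none had a larger and 2 a smaller one (median 0.01). APRR5 BnaC07g29960D rose by 7.90 in HX17 and 4.00 in HX58 (difference 3.90 ± 0.65, adjusted p = 0.0099). Of 102 clock loci 11 had a larger and none a smaller value in HX17. APRR9 BnaA04g26750D was among these 11, since it fell by 2.39 in HX17 and by 4.04 in HX58. VIN3 BnaA02g08140D differed most among the named loci, with a rise of 6.86 in HX17 and a change of -0.74 ± 0.40 in HX58 (difference 7.61 ± 0.96, adjusted p = 0.0023).

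Defence and nitrogen genes lay on the other side. Of 124 pathogenesis-related and chitinase loci 15 had a smaller response in HX17 and none a larger one (median difference -1.36). In HX58 alone, 41 of 105 of these loci rose and 2 fell, with a median of 1.25. GNS1 BnaA07g17230D fell by 2.10 in HX17 and rose by 2.10 in HX58 (difference -4.21 ± 0.39, adjusted p = 0.00033). LBD37 BnaC02g16720D fell by 2.69 in HX17 and rose by 2.17 in HX58 (difference -4.87 ± 0.42, adjusted p = 0.00033), and 13 of 57 nitrate assimilation loci had a smaller value in HX17. These differences rest on HX17_MA, which stood apart from HX17_MB at the nitrate and the pathogenesis-related genes as given above. At GNS1, HX17_MB was below HX17_MA by 1.75 (adjusted p = 0.0025). Both ABCC3 loci rose in HX58, by 1.98 and 1.02, and fell in HX17.

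**Figure D4:**
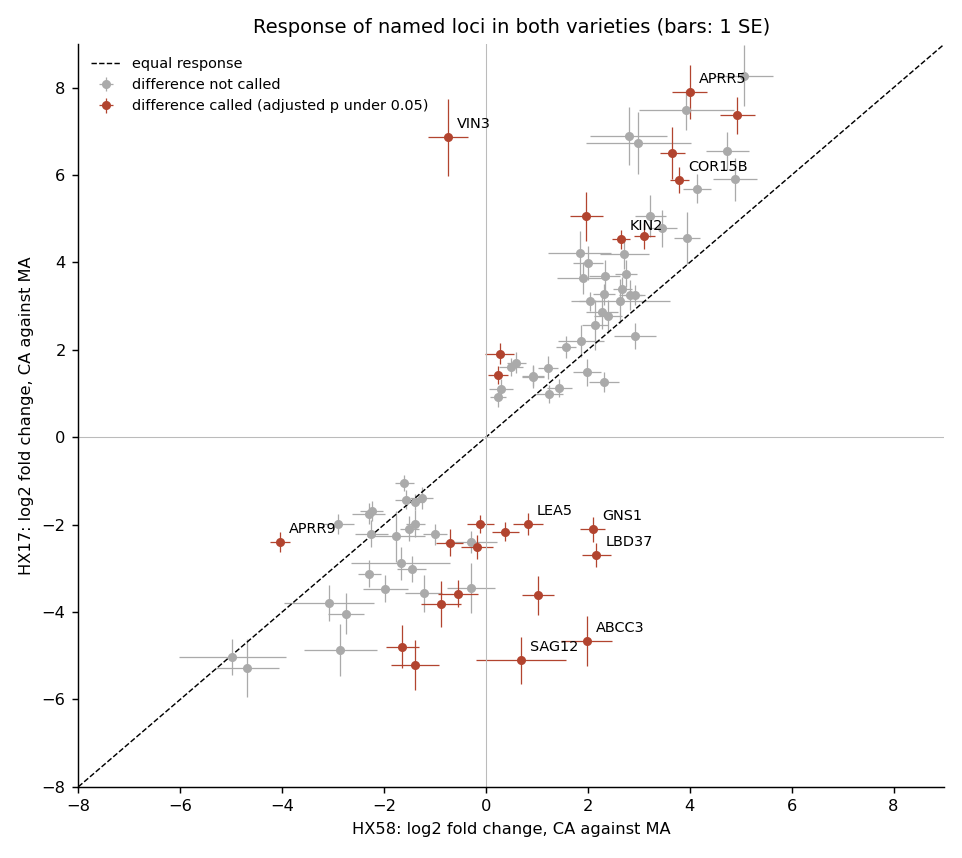
Response to acclimated chilling of 88 named loci, as the log2 fold change of CA over MA in HX58 (x axis) and HX17 (y axis), with bars of 1 standard error and a dashed line of equal response. All 88 loci were called in HX17, while no call in HX58 was required. This choice favours loci with a large change in HX17, so the plot is not an even comparison of the varieties. The 25 loci in red had a called difference between varieties, among them VIN3, APRR5 and KIN2 above the line and GNS1, LBD37, ABCC3 and SAG12 below it.

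The acclimated response was also set beside that to direct chilling in HX17, HX17_CB against HX17_MB, in which 9842 of 52816 genes rose (18.6%) and 10085 fell (19.1%). The test of the difference, on 12 libraries, called 3612 of 55390 genes with a higher value in the acclimated comparison (6.52%) and 2176 with a lower one (3.93%). The total of 5788 became 3628 without HX17_CA_2, 3617 without HX17_MB_1 and 3811 without HX17_MB_2. The 2 responses have different controls, so that differences between HX17_MA and HX17_MB enter this test.

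Photosynthesis genes had the higher value after acclimation, at 37 of 68 light-harvesting loci (median difference 1.20) and 42 of 140 photosystem loci. RCA BnaC03g22220D changed by -1.43 after acclimation and by -2.89 on direct chilling (difference 1.47, adjusted p = 0.0088). Flavonoid genes were higher at 28 of 80 loci (median 1.14). PAL2 BnaA09g33560D rose by 3.70 after acclimation, and its change on direct chilling was -0.49 (adjusted p = 0.1). ERD10 BnaA07g11450D rose by 3.11 after acclimation against 0.29 on direct chilling (difference 2.83, adjusted p = 0.009). Cold-regulated proteins were divided, with 3 of 26 higher and 7 lower. COR15B BnaC03g23750D rose by 5.89 after acclimation and by 7.72 on direct chilling (difference -1.82, adjusted p = 0.012), and LTI65 BnaA02g10970D by 6.50 and 2.96 (difference 3.56, adjusted p = 0.0049). The histone response was lower in the acclimated comparison at 51 of 136 loci (median difference -1.38). Its median was 0.06 for HX17_CA against HX17_MA and 1.29 for HX17_CB against HX17_MB. In this list HX17_MB lay below HX17_MA (median -0.84), and HX17_CA against HX17_MB had a median of 0.92.

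**Figure D5:**
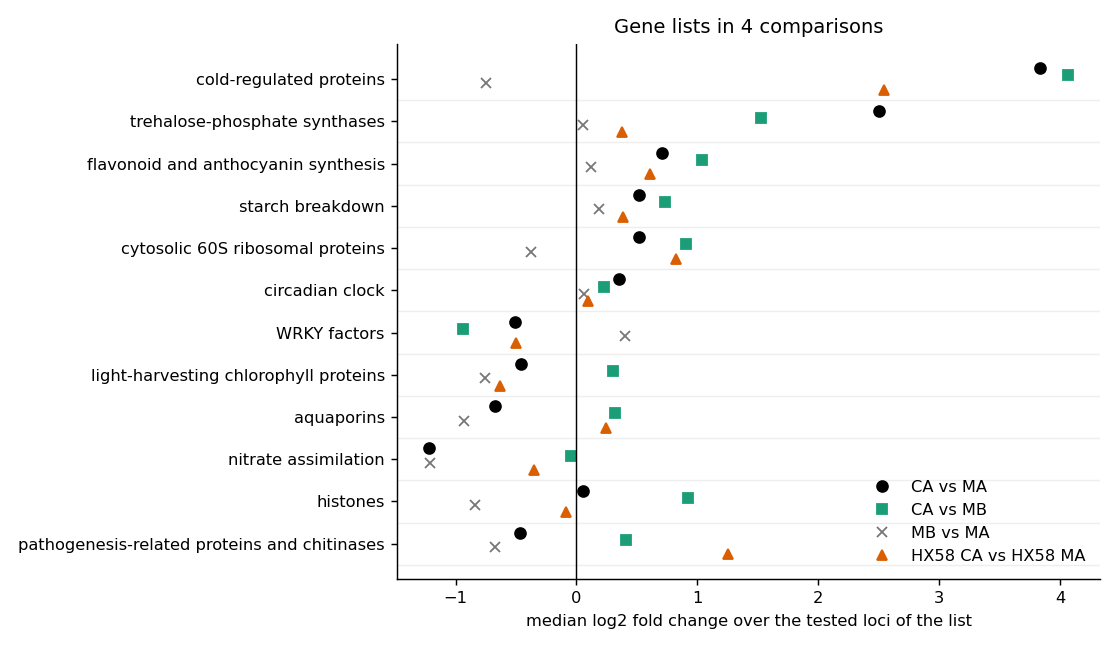
Median log2 fold change over the tested loci of 12 gene lists in 4 comparisons, HX17_CA against HX17_MA (black circles), HX17_CA against HX17_MB (green squares), HX17_MB against HX17_MA (grey crosses) and HX58_CA against HX58_MA (orange triangles). The comparisons share libraries, and no test goes with the medians, which for nitrate assimilation were -1.22, -0.05, -1.21 and -0.35.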

How the data were processed

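Leaf RNA was sequenced by the authors, whose notes name HISAT2 2.0.4 and HTSeq 0.9.1. Reads were counted on the Genoscope B. napus genes plus transcripts the authors assembled. Genome version and strand setting: not given in the sources used here. Deposited values were raw read counts per gene and FPKM (the authors' counts per coding length and library total). Columns of the authors' own comparisons (fold changes and p-values) and group means were not used.

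Counts of the 6 libraries were tested with edgeR 4.0.16 (R 4.3.3) by its quasi-likelihood test, with TMM scaling and filterByExpr (minimum count 10, minimum total 15), and Benjamini-Hochberg adjusted p-values over all tested genes. Differences between responses were interaction terms in 12 libraries. The fits were tested on simulated data with known changes. Groups came from the labels. Alternatives were DESeq2 1.42.0, RLE scaling, other filters, a stricter threshold, a model of all 36 libraries, HX17_MB as control or with HX17_MA, a replicate block and leaving out each library.

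Named loci were the 10 largest rises and falls with a fold of at least 2, an adjusted p under 0.005, a mean of at least 5 CPM, groups that did not overlap and a Swiss-Prot match; in each list the called locus with the smallest p in each direction and the most abundant locus; the 5 most abundant called loci in each direction; and loci the study names by ID. The loci and gene lists were chosen with earlier results of these data known. Chosen after their values were seen were the lists of nitrate assimilation and trehalose-phosphate synthases, the families singled out within lists, and the loci BnaA03g10310D, BnaA03g13620D, BnaA07g01250D, BnaA10g18350D, BnaAnng34260D, BnaC01g00280D, BnaC02g16720D, BnaC04g56560D, BnaC06g38300D, BnaC07g05090D, BnaC09g51060D and BnaCnng37450D.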

Additional observations from a re-analysis of the deposited data

Results flagged for a closer look

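The response to acclimated chilling differed between HX17 and HX58 for 961 genes by edgeR's interaction test, and between the acclimated and the direct treatment of HX17 for 5788 genes. The values below are the log2 fold change of HX17 minus that of HX58, each called in that test. No explanation was tested.

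Among cold and stress genes the difference was 1.87 for KIN2 BnaA02g02910D, 2.85 for LTI65 BnaA02g10970D, 2.09 for COR15B BnaC03g23750D, 3.10 for DREB1C BnaAnng34260D, 1.5 for RAV1 BnaAnng40580D and 1.17 for P5CSB BnaC08g26550D. It was -2.81 for LEA5 BnaC03g73200D and -3.82 for ERF060 BnaA03g54460D.

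Among clock, vernalization and hormone genes it was 2.44 for APRR5 BnaA06g26980D, 3.90 for APRR5 BnaC07g29960D, 1.65 for APRR9 BnaA04g26750D, 7.61 for VIN3 BnaA02g08140D, 6.39 for VIN3 BnaA03g10310D and 1.64 for TIFY7 BnaCnng65670D. It was -1.89 for SAUR32 BnaC09g29950D.

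Among nitrogen, transport, senescence and defence genes the called differences of the named loci were negative. They were -3.03 for NIA2 BnaA07g20840D, -2.54 for NIA1 BnaC06g38300D, -1.70 for NIR1 BnaC07g05090D, -2.95 for cysG BnaA04g10650D and -4.87 for LBD37 BnaC02g16720D. For ABCC3 they were -6.63 at BnaA03g32640D and -4.64 at BnaC03g73620D. They were -2.34 for PIP1.1 BnaA04g00710D, -3.15 for AGT3 BnaC03g21300D, -5.81 for SAG12 BnaC01g26050D and -4.21 for GNS1 BnaA07g17230D.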

How the results depend on the processing

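Of the 4787 genes called in HX17_CA against HX17_MA, leaving out 1 library gave between 1222 and 5938. The count was 527 at the stricter threshold, 8820 with DESeq2, 9003 in a model of all 36 libraries, 13027 with HX17_MB as control and 14017 with both controls. The 961 differences between varieties became 398 to 832 with a library left out, 95 at the stricter threshold, 3328 with DESeq2 and 3058 in the model of all 36 libraries. The 5788 differences from direct chilling became 3617 to 7216 with a library left out, 1352 at the stricter threshold and 9140 with DESeq2. The 762 calls in the gene lists became 266 to 892 with a library left out, 140 at the stricter threshold, 1247 with DESeq2, 1150 with all 36 libraries, 2027 with HX17_MB and 2029 with both controls. Of 117 named loci called, 73 passed the stricter threshold and 90 to 115 were called with a library left out. NIA1 BnaC06g38300D changed sign with HX17_MB as control (0.75, adjusted p = 0.154). The cause of these shifts was not tested. RLE scaling gave 4811, 937, 5824 and 762 calls for the 4 counts and kept all 117 named loci.

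Same-numbered HX17_CA and HX17_MA libraries did not deviate together (correlations of 0.091, -0.350 and -0.530), so the numbers were not taken to pair them, and HX17_CA_1, HX17_CA_2 and HX17_CA_3 each correlated best with an HX17_MA library of another number. With the replicate block the 4 counts were 1374, 557, 4053 and 297, and 88 of the named loci were called.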
